A study of Mus musculus with 4 samples.

Results

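The comparison described here sets LncGata6 mutant intestinal stem cells of the mouse small intestine against wild-type ones, with 1 expression array a side. The 2 arrays are taken from a series of 4 arrays, and the compared value is the log2 value on the mutant array minus that on the wild-type array. Every feature of the array that carries exactly 1 gene symbol was used, which gave 31269 of 72688 features and 30713 genes.

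Stem cells marked by Lgr5 sit at the base of the intestinal crypt, divide, and feed daughters that become absorptive enterocytes on the villus or secretory Paneth, goblet, enteroendocrine and tuft cells. Lgr5 is a receptor for R-spondins, the secreted proteins that strengthen Wnt signalling in the crypt, and its promoter drives the GFP reporter by which such cells are sorted. LncGata6 is a long noncoding RNA named after the gut transcription factor gene Gata6. The comparison asks which transcripts differ in cells sorted as stem cells when LncGata6 is mutant.

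All cells came from Lgr5GFP-CreERT2 mice of 8 weeks, in which a knock-in at Lgr5 drives both GFP and an inducible Cre recombinase. The wild-type sample is labelled as GFP-positive stem cells with a wild-type genotype, and the other as GFP-positive stem cells with the genotype LncGata6 mut; its array is called the mutant array by that label. By label, the other arrays hold GFP-negative non-stem cells and Ehf knockout stem cells, and they serve only for levels beside the comparison. Their levels do not all go with those labels. On the non-stem array the median level was 11.10 for hepatocyte plasma proteins and 8.79 for kidney tubule genes. On the Ehf knockout array it was 3.64 for general epithelial genes and 9.27 for neutrophil genes. Both labels are therefore used below only as names of arrays. The nature of the LncGata6 allele, the number of animals behind a sample and the sex of the animals are not given in the sources used here, and the collection protocol in the labels also speaks of sorting ILCreg cells. With 1 array a group there is no replicate error, so no difference below carries a test or a standard error.

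A gene was called higher or lower when its values differed by at least 1 on the log2 scale, which is 2-fold, and the brighter value reached the 75th percentile of its array. That percentile was 4.97 on the wild-type array and 4.93 on the mutant array. The 95th percentile of the array's negative control features, called the control limit here, was 5.62 on the wild-type array and 5.31 on the mutant array. A fold is the brighter over the dimmer array; where the dimmer value lay under its control limit the fold is a lower bound taken from that limit and is given as "at least", and no fold is given where both values lay under their limits. Where a gene is given as a pair of values, the wild-type array comes first and the mutant array after it, both as log2 levels.

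The mutant array went against its stem cell label at the marker used for the sort. Lgr5 was at 9.41 on the wild-type array and 3.03 on the mutant array, and it was at 3.03 on the non-stem array and 2.79 on the Ehf knockout array. Lgr5 was thus well above the control limit on the wild-type array only, and under it on the other 3. No feature carries the symbol LncGata6, and Gata6os, the antisense transcript beside Gata6, was at 4.92 on the wild-type array and 4.37 on the mutant array, both under the control limit, so the targeted RNA itself could not be checked. Gata6 was at 7.21 on the wild-type array and 7.62 on the mutant array. Both samples carried the epithelial identity: 14 of 14 general epithelial genes were above the control limit on both arrays, with Cdh1 at 9.24 on the wild-type array and 9.72 on the mutant array and Krt8 at 10.37 on the wild-type array and 10.84 on the mutant array. The X-inactivation RNA Xist was at 8.46 on the wild-type array and 2.44 on the mutant array, with 1.93 on the non-stem and 8.79 on the Ehf knockout array, and the Y-linked Uty, Kdm5d and Eif2s3y were at 3.39 and 4.50, 3.43 and 4.48 and 3.95 and 4.82 in the same order, all 3 under the control limits. Whether the animals differed in sex was not tested, and with 1 array a group such a difference cannot be told apart from the genotype.

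Over all 30713 genes, 864 (2.81%) were called higher and 926 (3.02%) lower on the mutant array, with a median difference of -0.06. Of the called genes, 281 higher and 150 lower ones differed at least 4-fold. Among 19238 protein-coding genes the split was 781 higher and 501 lower; the lower genes also included 208 of 4429 pseudogenes and 162 of 304 genes annotated as antigen receptor V segments. Under cyclic loess scaling of the 4 arrays the split became 1102 higher and 652 lower, so that 62.8% of the called genes were higher in place of 48.3%. Only 6668 of the 30713 genes were above the control limit on either array. With that limit as the brightness limit, 792 of the 6668 were called higher and 777 lower. These shares are larger than the 2.81% and 3.02% over all genes. Every count of called list members below is to be read beside both, and lists of bright genes beside the larger shares. Most of the largest higher differences belonged to enterocyte and villus genes, with others such as Ly6m and Ubd. The largest lower ones included Lgr5, Xist, endothelial genes and the metallothionein Mt2, with others such as Thbs1, Rgs5, Ly6c2 and Pla2g2a.

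**Figure D1:**
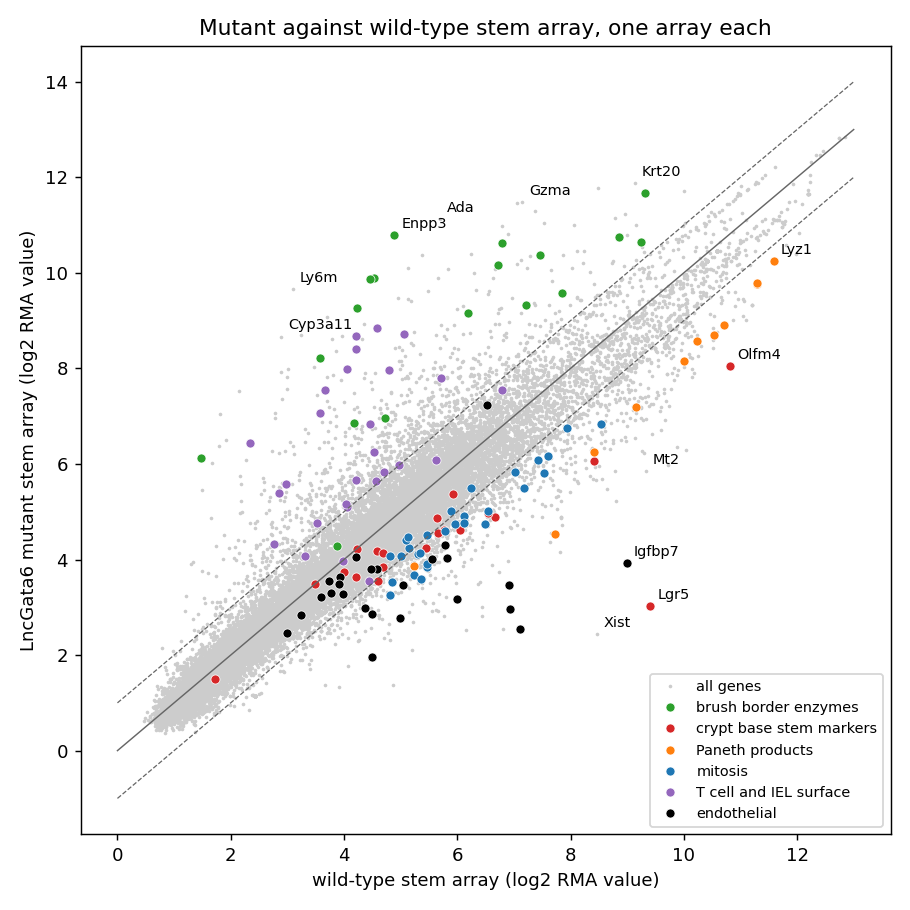
Log2 value of each of 30713 genes on the mutant array (vertical) against the wild-type array (horizontal), with members of 6 gene lists coloured; the solid line marks equal values and the dashed lines a 2-fold difference. Most brush border enzymes and T cell genes lie above the upper dashed line, while Lgr5, Igfbp7 and Xist lie farthest below the lower one.

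Of 20 measured crypt base stem cell genes (22 on the list), 9 were called lower and none higher, and the median difference was -0.94. Over all genes 3.02% were called lower, and 777 of the 6668 genes above the control limit on either array. Lgr5 had the largest, with a level at least 17.1-fold lower on the mutant array. Olfm4, a secreted marker of the same cells, was at 10.81 on the wild-type array and 8.06 on the mutant array, a level 6.76-fold lower but still far above the control limit. The chloride cotransporter gene Slc12a2 was at 8.42 on the wild-type array and 6.06 on the mutant array, 5.13-fold lower. Prom1, Sox9 and Lrig1, a crypt membrane protein, a Wnt-dependent transcription factor and a brake on growth factor receptors, were at least 2.57-fold, at least 2.36-fold and at least 1.66-fold lower. Another 3, Smoc2, Cdca7 and Cdk6, were called lower from values near the control limits. Of the 20, 10 were above the control limit on the wild-type array and 3 on the mutant array. In these sorted bulk samples, fewer cells of a type and less RNA per cell cannot be told apart.

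Among the receptors of the Wnt and R-spondin system, Lgr5 was the only 1 of 18 measured members called. The median over the list was -0.18. But 11 of the 18 lay under both control limits, so a lack of difference cannot be read from them. Lgr4, the related R-spondin receptor that is not confined to stem cells, was at 6.52 on the wild-type array and 5.57 on the mutant array, 1.93-fold lower and just short of the 2-fold limit. The ubiquitin ligase Znrf3, which removes Wnt receptors from the surface, was at 4.60 and 3.56, under both control limits. Of 12 measured Wnt target genes, Sox9 and Cd44 were called lower, Cd44 from 6.60 and 5.28. The differences were negative in 11 of 12, but 8 of the 12 lay under both control limits. Axin2 and Myc, further Wnt targets, were at 5.92 and 5.38 and 6.60 and 5.79 on the wild-type and mutant arrays and were not called. Among 18 Notch pathway genes the ligand Jag1 alone was called lower, with both values under the control limits. Hes1, the Notch effector, was at 6.12 and 5.37. Of the 18 Notch genes, 15 lay under both control limits.

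Ehf, the epithelial ETS factor that the study knocked out in another sample, was at 6.99 on the wild-type array and 5.09 on the mutant array, at least 3.20-fold lower on the mutant array. It was under the control limit on the mutant array and, at 3.03, on the Ehf knockout array, so those levels have no order. Elf3, a close relative in gut epithelium, was at 8.14 on the wild-type array and 7.02 on the mutant array, 2.17-fold lower. Elf4, an ETS factor of lymphocytes as well as epithelium, went the other way, at 5.96 on the wild-type array and 7.26 on the mutant array, and the other 14 of 17 measured ETS genes were not called. Elf3 fell short of the 2-fold limit under cyclic loess, with a difference of -0.99. The transcription factors of gut identity held calls in both directions. Of 20 measured, Creb3l3, Maf, Hnf4g, Klf4 and Prdm1 were called higher and Foxa1 lower. Over all genes 2.81% were called higher and 3.02% lower, and of the 6668 genes above the control limit on either array 792 and 777. A single lower call of 20 is under the share of the 6668 genes. Hnf4g, a nuclear receptor that drives enterocyte genes, was at 7.38 on the wild-type array and 8.92 on the mutant array, 2.90-fold higher. Klf4, a zinc finger factor of the differentiated villus, was 2.87-fold higher, and Maf, a bZIP factor of villus enterocytes, was 3.21-fold higher. Cdx2, which sets intestinal identity, was at 6.71 and 6.31, and Gata4 at 5.49 and 5.58; neither was called. Of 6 measured subunits of the NURF chromatin remodelling complex, only the histone-binding Rbbp7 was called lower, from 7.97 and 6.81, and not under cyclic loess, where its difference was -0.92. Bptf, the largest NURF subunit, was at 6.01 and 5.92.

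Mitotic genes were lower on the mutant array. Of 29 measured mitosis and spindle genes, 19 were called lower, all 29 differences were negative and the median was -1.22. Over all genes 3.02% were called lower, and 777 of the 6668 genes above the control limit on either array. Of the 29 genes, 14 lay under both control limits, so their signs are of values without a level. The proliferation antigen Mki67 was at 8.55 on the wild-type array and 6.84 on the mutant array, 3.26-fold lower, and topoisomerase Top2a was at 7.52 and 5.82, 3.26-fold lower. The spindle motor Kif11 was 3.23-fold lower, the mitotic ubiquitin ligase subunit Ube2c 2.70-fold and cyclin Ccna2 2.53-fold. On the mutant array 8 of the 29 stayed above the control limit, against 15 on the wild-type array. Of 26 DNA replication genes 6 were called lower and 25 of 26 differences were negative, with a median of -0.65. But 19 of the 26 lay under both control limits, so most of these signs are of values without a level. Above the limit were 7 on the wild-type array and 4 on the mutant array. Rrm1, a subunit of ribonucleotide reductase, was at 6.86 and 5.61, and the helicase subunit Mcm6 at 6.65 and 5.57, a call lost under cyclic loess. None of 17 p53 targets and cell cycle inhibitors was called lower, and Fas, the death receptor, was called higher at 5.87 and 6.89; the call was lost with the median over the features of Fas, which differed by 0.29, while 2 of the 17 were called higher under quantile normalization and cyclic loess. Ribosomal protein genes shared a small downward difference. The median over 42 was -0.74, 41 of 42 differences were negative, and 16 of the 42 lay under both control limits. Called lower were 6, led by Rpl35 at 10.01 and 8.70. All 6 lost the call under cyclic loess, where the median of the list was -0.57 and that of all genes 0.00. Pseudogenes named for ribosomal proteins, whose probes can share sequence with the functional genes, numbered 211, of which 49 were called lower and none higher. Respiratory chain subunits stood apart from them: 0 of 79 were called, with a median of -0.07 that turned to 0.10 under cyclic loess.

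Paneth cells, the antimicrobial neighbours of stem cells at the crypt base, gave the most uniform secretory difference. All 11 measured Paneth products (15 on the list) were called lower, with a median of -1.79. Their median level was 10.23 and 8.57, beside 4.50 on the non-stem and 2.61 on the Ehf knockout array. Lyz1, the Paneth lysozyme, was at 11.59 on the wild-type array and 10.25 on the mutant array, 2.53-fold lower, and just short of the call under cyclic loess, with -0.99. Pla2g2a, named for a bactericidal phospholipase and annotated as a transcribed pseudogene in the reference, was at least 5.36-fold lower, and Mmp7, the protease that activates defensins, was at 8.41 and 6.25, 4.49-fold lower. The secreted lectin Itln1 and the ribonuclease Ang4 were 3.57-fold and 3.59-fold lower. Except for Pla2g2a and Habp2, these products remained above the control limit on the mutant array. Defensin genes are near-identical copies and their probes can share signal, so Defa21, Defa22 and Defa26, 2.89-fold, 2.81-fold and 3.18-fold lower, are not independent of each other.

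Goblet cell genes held calls in both directions. Of 18 measured, 4 were called lower and 2 higher, with a median of -0.36, and 7 lay under both control limits. Over all genes 2.81% were called higher and 3.02% lower, and of the 6668 genes above the control limit on either array 792 and 777. The share called higher was close to that of the 6668 genes. Quantile normalization gave 3 higher and 3 lower. The secreted inhibitor Spink4 was at 10.24 on the wild-type array and 8.26 on the mutant array, 3.94-fold lower. Agr2, the disulfide isomerase needed to fold mucin, was at 9.80 and 8.40, 2.65-fold lower, and the protease Klk1 was 2.14-fold lower, a call lost under quantile normalization and cyclic loess. Zg16 and Fcgbp, mucus layer proteins that bind bacteria and mucin, were 3.26-fold and 2.40-fold higher; Zg16 was at 10.00 on the wild-type array and 11.71 on the mutant array. The main mucin Muc2 was at 9.74 and 10.26 and was not called. Of 27 enteroendocrine genes 3 were called lower, close to the share of the 6668 genes, and 1 higher, and 18 lay under both control limits. The glucagon precursor Gcg was at 6.36 on the wild-type array and 3.49 on the mutant array, at least 2.07-fold lower. Reg4, a secreted lectin of these cells, was at 8.86 and 7.35, 2.86-fold lower, and the granin Chgb was 2.02-fold lower, a call lost under cyclic loess. Neurotensin, Nts, a hormone of villus endocrine cells, was the exception at 5.08 on the wild-type array and 8.27 on the mutant array, at least 6.24-fold higher. All 16 measured tuft cell genes lay under the control limits on both arrays.

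Genes of the mature absorptive cell were higher on the mutant array in nearly every list. Of 18 measured brush border enzymes (20 on the list), 17 were called higher, and the median difference was 2.94. Over all genes 2.81% were called higher, and 792 of the 6668 genes above the control limit on either array. The median level of the brush border enzymes was 5.54 on the wild-type and 9.73 on the mutant array. It was 7.48 on the non-stem and 3.17 on the Ehf knockout array, so the mutant array held the highest of the 4. Enpp3, an ectonucleotide pyrophosphatase, was at 4.89 on the wild-type array and 10.78 on the mutant array, at least 35.8-fold higher. Lactase, Lct, was at 4.24 on the wild-type array and 9.27 on the mutant array, and trehalase, Treh, at 3.57 on the wild-type array and 8.22 on the mutant array; both were under the control limit on the wild-type array alone. The neutral endopeptidase Mme was at least 19.4-fold higher, and the alkaline sphingomyelinase Enpp7 was at 4.46 and 9.87. Other enzymes of the list were above the control limit on both arrays. Sucrase-isomaltase, Sis, was at 8.86 on the wild-type array and 10.75 on the mutant array, 3.69-fold higher, maltase-glucoamylase, Mgam, 2.63-fold and aminopeptidase N, Anpep, 5.12-fold. Intestinal alkaline phosphatase, Alpi, was at 6.79 and 10.64, 14.3-fold higher. Akp3, another phosphatase of the list, was under both control limits and was the 1 member not called.

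Purine handling gave the largest measured fold of the named genes. Adenosine deaminase, Ada, which converts adenosine to inosine, was at 5.69 on the wild-type array and 11.13 on the mutant array, 43.3-fold higher. The adenosine-producing ectonucleotidase Nt5e was at least 4.56-fold higher, and the nucleoside carrier Slc28a2 was at 3.70 on the wild-type array and 9.07 on the mutant array, at least 10.9-fold higher. Slc28a2b, a second gene of that carrier, was at 3.02 on the wild-type array and 7.99 on the mutant array; the pair are close copies and their probes can share signal. Xanthine dehydrogenase, Xdh, the last step to uric acid, was at 6.10 and 9.31, 9.25-fold higher, and guanine deaminase, Gda, at least 13.9-fold. In all 11 of 17 purine genes were called higher and none lower. Adk and Hprt, which salvage purines back into nucleotides, were at 6.64 and 5.76 and 7.44 and 7.13 and were not called.

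Nutrient carriers followed the enzymes, with 21 of 28 called higher, 1 lower and a median of 2.19. The peptide carrier Slc15a1 was at 5.38 on the wild-type array and 10.38 on the mutant array, at least 27.1-fold higher. The sodium-glucose carrier Slc5a1 was at 7.06 on the wild-type array and 10.20 on the mutant array, 8.77-fold higher, and its basolateral partner Slc2a2 was at least 4.70-fold higher. Slc6a19, which takes up neutral amino acids, was at least 8.33-fold higher, and Slc34a2, a phosphate carrier, at least 14.4-fold. The lactate carrier Slc5a12 was at 2.15 on the wild-type array and 7.52 on the mutant array. Slc1a1, a glutamate carrier, went against the list at 6.12 on the wild-type array and 4.72 on the mutant array, at least 1.75-fold lower.

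Of 23 measured genes of fat absorption, 19 were called higher and 1 lower, with a median of 2.40. Apolipoproteins of the chylomicron led: Apoa4 was at 6.78 on the wild-type array and 10.98 on the mutant array, 18.4-fold higher. Apob, the structural protein of the particle, was at 7.37 and 11.29, 15.2-fold higher, and Apoa1 was 11.4-fold higher. The fatty acid binding protein Fabp1 was at 5.14 on the wild-type array and 9.44 on the mutant array, at least 14.1-fold higher, and Fabp2 was at 9.54 and 12.19, 6.27-fold higher. Npc1l1, the cholesterol uptake receptor, was 8.08-fold higher, and Mttp, which loads lipid onto Apob, 5.26-fold. The lipid droplet protein Plin2 was the member called lower, at 6.85 and 5.79, and it lost the call under cyclic loess. By contrast none of 18 measured cholesterol synthesis and uptake genes was called, with a median of -0.19, and of 18 fatty acid oxidation genes Ehhadh was called higher and Pdk4 lower. Cyclic loess gave 1 cholesterol gene called higher, and 3 oxidation genes higher and 1 lower; quantile normalization gave 3 and 2 of the latter.

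Among 23 cytochrome P450 and conjugation genes, 17 were called higher and none lower, with a median of 2.19. Cyp3a11, the main drug-metabolising P450 of mouse gut and liver, was at 2.88 on the wild-type array and 8.66 on the mutant array, at least 8.23-fold higher. Cyp3a13, measured on both arrays, was at 6.29 and 9.99. Cyp2b10 was at least 3.35-fold higher and the soluble epoxide hydrolase Ephx2 at least 7.06-fold. Near-identical Cyp3a genes such as Cyp3a11, Cyp3a25 and Cyp3a44 can share probe signal. Many of these genes are also made by liver and kidney. All 12 measured hepatocyte plasma proteins and all 9 measured kidney tubule genes lay under the control limits on both arrays, with albumin, Alb, at 2.13 and 2.17. On the non-stem array the medians of these 2 lists were 11.10 and 8.79.

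The structural parts of the microvillus differed in the same direction but less. Of 13 measured, 10 were called higher, with a median of 1.40, and 12 were already above the control limit on the wild-type array. The protocadherin Cdhr2, which links neighbouring microvilli, was at 6.33 on the wild-type array and 9.63 on the mutant array, 9.89-fold higher. The actin bundlers Vil1 and Pls1 were 4.24-fold and 4.83-fold higher, and Ezr, which ties actin to the membrane, 3.94-fold. General epithelial genes had a median of 0.53 over 14, with 1 called higher and 2 lower. Krt18 and Krt19, keratins of simple epithelium, were 3.05-fold and 2.44-fold lower, and the intestinal cadherin Cdh17 was 2.16-fold higher; 3 were called higher under quantile normalization and 4 under cyclic loess.

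The lists of villus position differed in their medians. All 9 villus tip genes were called higher, with a median of 4.11, among them Krt20, the keratin of shed enterocytes, at 9.13 on the wild-type array and 11.88 on the mutant array, 6.72-fold higher. Only 1 of 8 genes of the antimicrobial programme of the villus bottom was called, Reg1, and the median was 0.06; under cyclic loess 3 were called higher and the median was 0.16. Reg3b and Reg3g, lectins against gut bacteria, were at 10.95 and 11.68 and 9.30 and 10.09, and Lypd8, which binds flagella, was at 10.81 and 10.63. Several tip genes, Enpp3, Ada, Nt5e, Slc28a2 and Apoa4, are members of the lists above too. Of genes graded along the length of the gut, 6 of 12 genes of the proximal gut and 3 of 8 ileal genes were called higher and 1 ileal gene lower, with medians of 1.05 and 0.81. Fabp6, the ileal bile acid binding protein, was at 9.22 on the wild-type array and 8.87 on the mutant array. Abcc2, Slc10a2 and Slc51b, carriers of bile acids and conjugates, were called higher, Slc51b at 8.76 and 10.26. Fgf15, the ileal hormone induced by bile acids, was called lower from values under both control limits and not under quantile normalization.

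**Figure D2:**
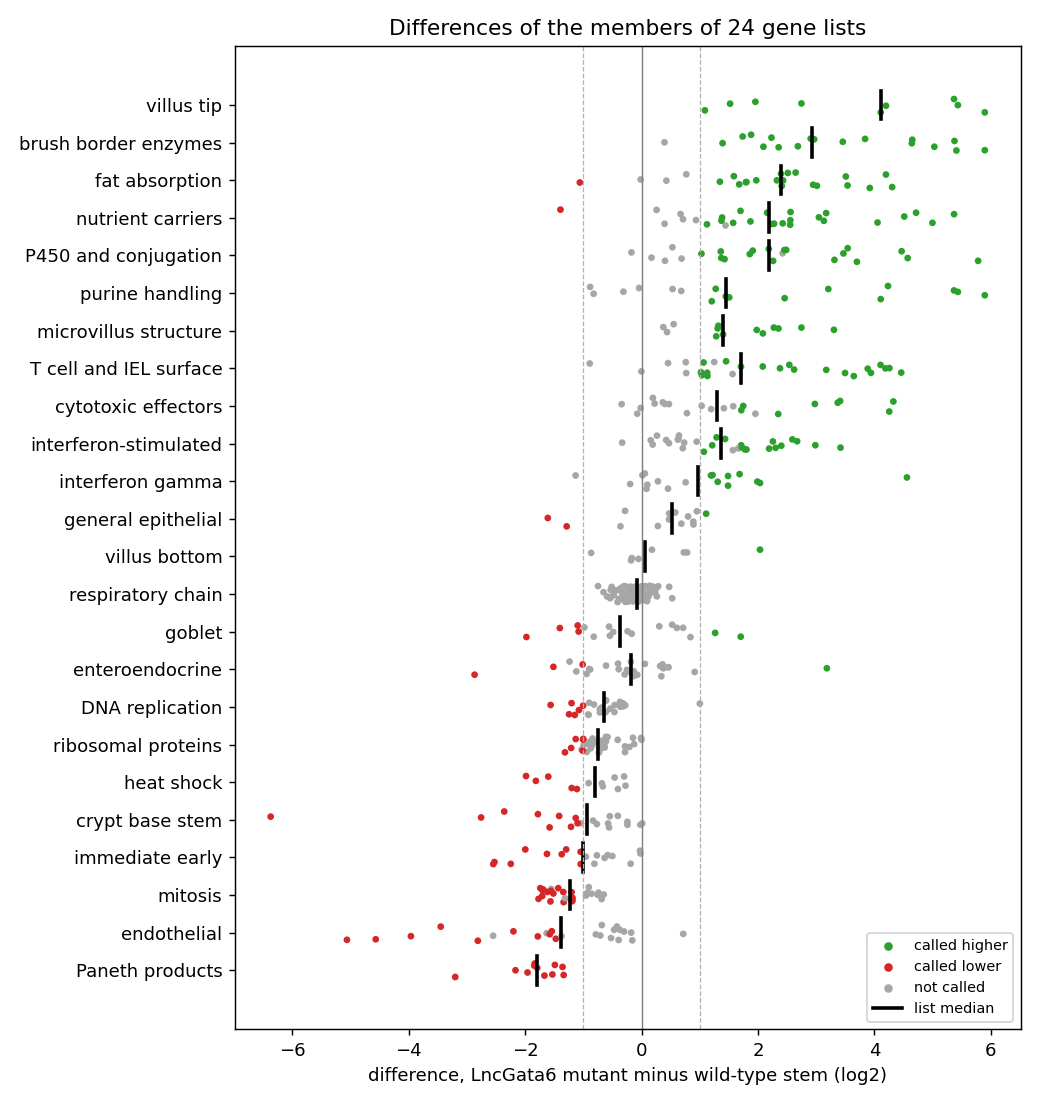
Difference on the log2 scale, mutant minus wild-type, of every measured member (points) of 24 gene lists, with a black bar at each list's median and dashed lines at a 2-fold difference. Medians run from 4.11 for villus tip genes at the top to -1.79 for Paneth products at the bottom; respiratory chain subunits gather around 0.

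Ion transport genes differed in both directions. Cftr, the secretory chloride channel, was at 6.58 on the wild-type array and 4.83 on the mutant array, at least 2.42-fold lower. Clca4a and Clca4b, chloride channel accessory proteins of enterocytes, were 21.2-fold and 9.72-fold higher, with Clca4a at 7.05 on the wild-type array and 11.46 on the mutant array; the pair are close copies. The sodium-proton exchangers Slc9a2 and Slc9a3 were 8.39-fold and at least 4.52-fold higher, and the anion exchanger Slc26a6 at least 3.62-fold. Of 17 such genes 6 were called higher and 3 lower, and the median, -0.09, turned to 0.05 under cyclic loess. Of 10 genes of citrulline, ornithine and urea metabolism 2 were called higher and 3 lower, with a median of -0.23. Cps1, the entry enzyme of the urea cycle, was at 9.88 on the wild-type array and 7.87 on the mutant array, 4.03-fold lower, and Oat, ornithine aminotransferase, was 2.72-fold lower. Aldh18a1, which makes proline and ornithine precursors, was 2.10-fold lower, a call lost under cyclic loess. Arg2, a mitochondrial arginase, was 2.21-fold higher, and Slc25a15, the mitochondrial ornithine carrier, 2.68-fold. Of 7 genes of fructose use and glucose synthesis 3 were called higher and none lower, and another 3 were under both control limits. Khk, ketohexokinase, was at 5.50 and 7.31, at least 3.23-fold higher, and Slc2a5, the fructose carrier, was at 3.65 and 5.81.

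Metallothioneins, small proteins that bind zinc and copper, were among the largest lower differences. Mt1 was at 9.66 on the wild-type array and 6.91 on the mutant array, 6.72-fold lower, and Mt2 at 9.33 on the wild-type array and 5.85 on the mutant array, 11.2-fold lower. On the non-stem array they were at 8.67 and 8.26, and on the Ehf knockout array at 7.66 and 7.55, so the mutant array held the lowest level of each. Slc39a4, the zinc uptake carrier of enterocytes, was at 6.02 on the wild-type array and 7.82 on the mutant array, 3.49-fold higher. Slc39a8, another importer, was called lower at 5.76 and 4.73 but not under cyclic loess, and Mtf1, the zinc-sensing transcription factor, was at 4.86 and 5.34 and was not called. Of 14 genes of metal handling 1 was called higher and 3 lower. The promoters of the pair are shown because both genes lie near each other on the same chromosome and had a like difference. RefSeq's table of GRCm38.p6 holds 250 bases before the start of each. Capitals mark the core of the metal response element, searched as TGCACNC or TGCGCNC on both strands. Mt1 is at chr8:94178839-94179088 on the plus strand and Mt2 at chr8:94172368-94172617 on the plus strand.
Mt1: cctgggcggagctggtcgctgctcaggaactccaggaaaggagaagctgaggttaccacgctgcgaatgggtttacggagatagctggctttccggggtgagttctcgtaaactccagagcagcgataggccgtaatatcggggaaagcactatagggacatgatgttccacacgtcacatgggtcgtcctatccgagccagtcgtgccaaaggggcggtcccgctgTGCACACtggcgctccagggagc
Mt2: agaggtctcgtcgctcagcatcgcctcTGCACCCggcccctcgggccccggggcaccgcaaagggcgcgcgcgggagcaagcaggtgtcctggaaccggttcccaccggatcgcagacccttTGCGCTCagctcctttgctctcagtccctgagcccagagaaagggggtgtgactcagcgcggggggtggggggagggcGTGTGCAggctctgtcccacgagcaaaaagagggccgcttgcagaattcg
The Mt1 window holds 1 match and the Mt2 window 3. Of 12 genes of metal handling with a promoter in the table, 10 hold the core at 1 of their starts or more, against 23.8% of 27025 genes, and those 10 include genes that were not called, such as Slc30a1 at 5.73 and 5.69. A match is a description of the letters in this window.

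Early response genes were lower as a set. Of 18 measured immediate early genes 9 were called lower, and all 18 differences were negative, with 4 of the 18 under both control limits. The AP-1 subunit Fosb was at 8.51 on the wild-type array and 5.96 on the mutant array, 5.85-fold lower, and the zinc finger factor Egr1 at 8.08 and 5.83, 4.75-fold lower. Nr4a1, Ier3 and Atf3 were 3.99-fold, at least 3.61-fold and 2.45-fold lower. Ptgs2, the inducible cyclooxygenase, was at 6.74 on the wild-type array and 3.74 on the mutant array, at least 2.70-fold lower. Chaperones followed, with 5 of 12 called lower (3 under cyclic loess) and a median of -0.80. Hspd1, the mitochondrial chaperonin, was at 8.60 and 6.78, 3.52-fold lower, and Hspa5, a chaperone of the endoplasmic reticulum, was 3.04-fold lower. Hspa8, the constitutive cytosolic chaperone, was at 11.97 and 11.51 and was not called. The matricellular gene Ccn1, a target of Yap, was at 8.79 on the wild-type array and 5.85 on the mutant array, 7.68-fold lower. Clu, a marker of regenerating epithelium, was at least 1.92-fold lower. The other 7 of 9 regeneration genes were not called and lay under both control limits, so a lack of difference cannot be read from them.

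Gasdermins, which form membrane pores, went in opposite directions. The epithelial Gsdmc2, Gsdmc3 and Gsdmc4 were 4.81-fold, 5.14-fold and 4.25-fold lower, with Gsdmc4 at 9.16 on the wild-type array and 7.07 on the mutant array; these 3 are close copies. Gsdmd, the target of inflammatory caspases, was at 5.03 on the wild-type array and 8.38 on the mutant array, at least 6.77-fold higher. Ly6m, a small GPI-linked surface protein, had the largest higher difference of the named genes, at 3.10 on the wild-type array and 9.66 on the mutant array, at least 16.4-fold higher. Its relatives Ly6c1 and Ly6c2 were lower, Ly6c2 at 7.63 and 4.37. The list of galectins, gasdermins and Ly6 genes held 2 called higher and 5 lower of 18, and its median, -0.10, turned to 0.10 under cyclic loess. The dual oxidase Duox2 and its maturation factor Duoxa2, which make hydrogen peroxide at the surface, were at 6.49 and 8.33 and 6.60 and 8.67, 3.60-fold and 4.18-fold higher. Dmbt1, a secreted scavenger receptor, was 2.25-fold lower, a call lost under cyclic loess.

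**Figure D3:**
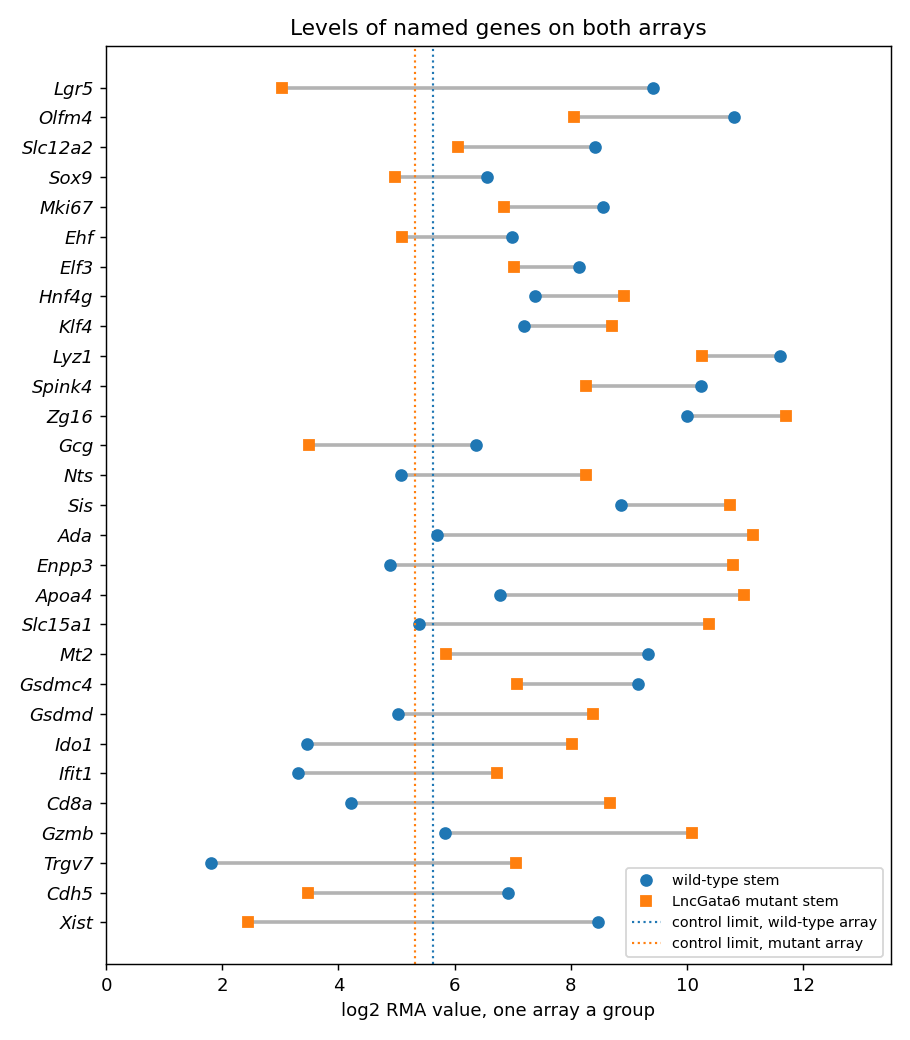
Log2 value of 29 named genes on the wild-type (circle) and the mutant (square) stem array, 1 array each, joined by a grey line; dotted lines mark the control limits of 5.62 and 5.31. Lgr5, Gcg, Cdh5 and Xist drop under the limit on the mutant array, while Enpp3, Slc15a1, Cd8a and Trgv7 are under it on the wild-type array only.

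Transcripts of cells other than epithelium also differed between the samples, in both directions. T cell receptor complex and intraepithelial lymphocyte surface genes were higher: 20 of 27 were called higher and none lower, with a median of 1.71. Their values ran from 2.34 to 6.79 on the wild-type array, where 2 of 27 were above the control limit, and from 3.56 to 8.85 on the mutant array, where 20 were. The median level of the list was 4.21 and 6.07, beside 3.96 on the non-stem and 4.89 on the Ehf knockout array. Cd8a was at 4.21 on the wild-type array and 8.68 on the mutant array, at least 8.29-fold higher. Cd3e, a signalling chain of the receptor, was at 5.06 and 8.71, and Itgae, the integrin that holds lymphocytes in the epithelium, was at least 3.82-fold higher. The helper cell marker Cd4, at 4.06 and 5.09, passed the size rule with both values under the control limits. Of 22 cytotoxic effectors 8 were called higher and none lower, with a median of 1.31. Granzymes Gzma and Gzmb were at 7.15 and 11.47 and 5.83 and 10.09, 20.1-fold and 19.1-fold higher, and both were above the control limit on the wild-type array too. Of 15 measured innate lymphoid factors Il7r was called higher, at 4.19 and 6.54 (2 were under quantile normalization and cyclic loess), and 12 of the 15 lay under both control limits. The part of these cells in the other results was not tested.

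Antigen receptor segments, a group singled out after its values were seen, divided by cell lineage. Immunoglobulin heavy and kappa V segments, used by B and plasma cells, were lower: 167 of 203 were called lower and none higher, with a median of -1.88. The median level of the 203 was 8.08 on the wild-type array and 5.95 on the mutant array, beside 5.03 on the non-stem and 8.17 on the Ehf knockout array. The heavy chain constant regions examined were not called: Ighm was at 6.54 and 6.11, Ighg2b at 8.95 and 8.12, and Ighg1 and Ighe were under both control limits. Igha, the constant region of IgA, was not found among the named genes, and no light chain constant region was examined. Xbp1, the plasma cell factor that other secretory cells share, was at 7.80 and 6.90 and was not called, nor was Sdc1. T cell receptor V segments were higher, with 18 of 119 called higher, none lower and 115 of 119 differences positive. Of the 119, only 1 was above the control limit on the wild-type array and 15 on the mutant array. Of 5 gamma segments 3 were called higher: Trgv7, Trgv4 and Trgv3 were at 1.81 and 7.05, 2.89 and 7.92 and 3.86 and 8.37, with the constant segment Trgc3 at 5.14 and 10.11. Trgc3 was at least 22.3-fold higher. Trgv5, under both control limits, had a difference of -0.72. The delta chain, which pairs with gamma, showed 1 called segment of 5, Trdv5 at 3.44 and 5.02, both under the control limits. Of 21 beta segments 6 were called higher, led by Trbv13-2 at 1.66 and 6.02, and of 88 alpha segments 8. The control limits left none of the called alpha segments with a fold. Among the beta segments they left only Trbv13-2, at least 1.3-fold higher, and Trbv3, at least 1.05-fold higher. Many V segments of a locus resemble each other, so their probes can share signal and the counts are not of independent genes.

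**Figure D4:**
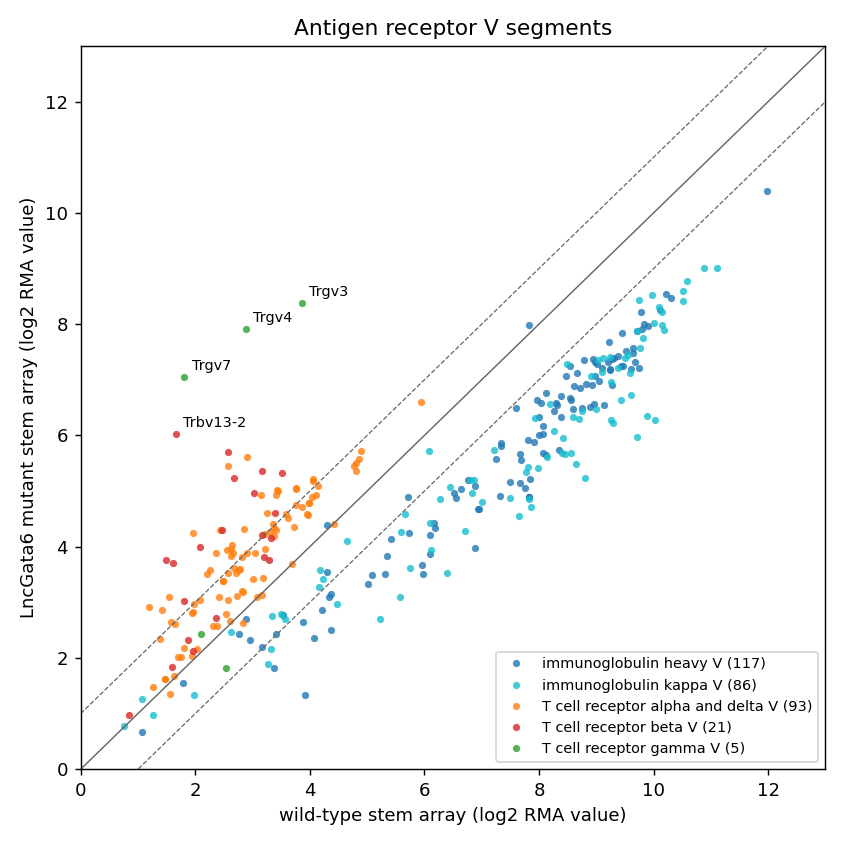
Log2 value of antigen receptor V segments, 203 of immunoglobulin and 119 of T cell receptor loci, on the mutant array (vertical) against the wild-type array (horizontal), coloured by locus; the solid line marks equal values and the dashed lines a 2-fold difference. Most immunoglobulin segments lie below the lower dashed line, T cell receptor segments lie mostly above the solid line, and Trgv3, Trgv4 and Trgv7 lie farthest above.

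Of 11 measured B and plasma cell genes, Jchain, Blnk and Mzb1 were called lower, with values on the list from 2.06 to 8.61 on the wild-type array and from 2.26 to 6.69 on the mutant array. Jchain, which links secreted antibody, was at 8.61 on the wild-type array and 6.69 on the mutant array, 3.81-fold lower. The mature B cell genes Cd79a and Ms4a1 were under the control limits on both arrays. Myeloid genes showed no single direction, with 2 of 19 called higher, Fcer1g and Ctss, and 2 lower, Lyz2 and C1qb; C1qb lost the call under cyclic loess. All 13 neutrophil, 8 mast cell and 4 measured red cell genes were under the control limits on both arrays.

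Endothelial genes were lower on the mutant array, mostly to under the control limit. Of 25 measured, 10 were called lower and none higher, with a median of -1.38; 8 were above the control limit on the wild-type array (range 2.99 to 8.99) and 1 on the mutant array (range 1.95 to 7.24). Cdh5, the cadherin of blood vessels, was at 6.92 on the wild-type array and 3.47 on the mutant array, at least 3.06-fold lower, with 6.41 on the non-stem and 2.70 on the Ehf knockout array. Igfbp7 and Sparcl1, secreted matrix proteins of vessels, were at 8.99 and 3.93 and 7.10 and 2.54, at least 12.8-fold and at least 3.47-fold lower. F3, the coagulation starter tissue factor, and Rgs5, a pericyte marker, were at least 2.83-fold and at least 2.19-fold lower. Of 20 fibroblast, matrix and smooth muscle genes 7 were called lower and none higher; Thbs1 was at 7.82 and 4.16, and Acta2, smooth muscle actin, at 6.61 and 3.88. Of 8 neural and glial genes none was above the control limit on either array, and the neuropeptide gene Vip, outside that list, was at 5.77 and 2.81. In the pancreas list only colipase, Clps, was above the limits, at 6.79 on the mutant array, 4.62-fold lower. The part of vessel, stromal, B and plasma cells in the other lower groups was not tested.

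Interferon-stimulated genes were higher on the mutant array. Of 30 measured, 16 were called higher and none lower, with a median of 1.36. Ifit1, which binds foreign RNA, was at 3.31 on the wild-type array and 6.73 on the mutant array, at least 2.15-fold higher. Zbp1, a sensor of left-handed nucleic acid, was at least 3.66-fold higher, Irf7, the factor that amplifies interferon genes, at least 2.58-fold, and Usp18, a brake on the interferon receptor, at least 1.95-fold. The range of the list was 2.10 to 5.90 on the wild-type array and 2.74 to 7.50 on the mutant array. Of 18 genes induced by interferon gamma 9 were called higher and none lower, with a median of 0.97. Ido1, which breaks down tryptophan, was at 3.46 on the wild-type array and 8.02 on the mutant array, at least 5.28-fold higher, and the GTPase Igtp was at 6.09 and 8.13, 4.10-fold higher. Ifng itself, a T cell product, was at 3.64 and 5.36. T cell genes were higher on the same array, and their part in these lists was not tested. The classical MHC class I genes H2-K1 and H2-D1 were 2.60-fold and 2.31-fold higher, 3 of 11 class I genes being called, and none of 8 MHC class II genes was called, though 1 was higher under cyclic loess. Among 23 chemokines and receptors 1 was called higher and 4 lower. Ccl5, a T cell chemokine, was 10.7-fold higher, and the epithelial Ccl28 was 2.43-fold lower. Cxcl1 and Cxcl2, which draw neutrophils, differed by -1.67 and -1.19 with values under both control limits, and Ccl6 was 2.03-fold lower, a call lost under cyclic loess.

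The promoters of 3 genes called higher are shown because they carry the core of the interferon-stimulated response element, the site bound by interferon-regulated factors. Each run is 250 bases before the start in RefSeq's table of GRCm38.p6, and capitals mark the core, searched as GAAANNGAAA on both strands. Ifit1 is at chr19:34640639-34640888 on the plus strand, Rsad2 at chr12:26456453-26456702 on the minus strand and Igtp at chr11:58199306-58199555 on the plus strand.
Ifit1: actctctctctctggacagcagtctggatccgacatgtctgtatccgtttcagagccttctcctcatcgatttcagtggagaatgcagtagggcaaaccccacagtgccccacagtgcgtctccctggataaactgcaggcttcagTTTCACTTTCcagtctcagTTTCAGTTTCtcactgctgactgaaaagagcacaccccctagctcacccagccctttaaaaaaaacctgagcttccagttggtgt
Rsad2: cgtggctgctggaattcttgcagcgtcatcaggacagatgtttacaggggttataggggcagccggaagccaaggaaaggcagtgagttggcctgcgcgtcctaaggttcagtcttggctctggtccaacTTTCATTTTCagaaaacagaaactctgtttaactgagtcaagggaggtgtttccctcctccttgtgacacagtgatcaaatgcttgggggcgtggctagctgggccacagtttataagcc
Igtp: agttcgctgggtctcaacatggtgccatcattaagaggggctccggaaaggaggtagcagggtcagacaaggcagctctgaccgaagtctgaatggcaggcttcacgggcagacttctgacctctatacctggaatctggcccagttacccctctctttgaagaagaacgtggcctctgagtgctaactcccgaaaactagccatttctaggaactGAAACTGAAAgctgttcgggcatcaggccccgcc
Rsad2, an antiviral radical enzyme, was at 3.51 and 5.81 on the wild-type and mutant arrays. The core was present in 10 of 21 interferon-stimulated genes with a promoter in the table and in 8 of 12 of the interferon gamma list, against 3.46% of 27025 genes. Within both lists together it was in 11 of 19 genes called higher and in 7 of 14 genes not called. For the mitosis list, the short element TTTGAA was in 9 of 25 promoters, against 18.3% of all, on either strand. The HNF4 core CAAAGTCCA was in 2 of 16 promoters of brush border enzymes, 1 of 23 of nutrient carriers, 0 of 18 of fat absorption genes and 2 of 21 of cytochrome P450 and conjugation genes, against 0.451% of all.

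The 20 largest differences each way held some genes outside these lists. Ubd, a ubiquitin-like modifier, was at 1.79 on the wild-type array and 6.38 on the mutant array, at least 1.69-fold higher. Acot12, an acyl-CoA thioesterase, was at 2.99 and 7.81, at least 4.56-fold higher, Susd2 at 3.79 and 8.61 and Sectm1b at 4.36 and 8.92. Among the lower ones were Tm4sf1, a membrane protein of vessels, at 6.16 and 2.52, and Adgrf5, an adhesion receptor, at 6.44 and 2.81. Ptprb, the endothelial phosphatase, at 5.99 and 3.18, is a member of the endothelial list and is already counted there. Sele, the endothelial selectin, was called lower from values under both control limits, 5.20 and 2.11.

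Of 3343 long noncoding RNAs, 5 were called higher and 4 lower, but only 25 were above the control limit on the wild-type array and 30 on the mutant array. Xist had the largest difference, at least 8.88-fold lower. The immune transcript AW112010 was at 5.64 on the wild-type array and 7.72 on the mutant array, 4.24-fold higher, and Bc1, a small cytoplasmic RNA, was at 8.02 and 6.54, though the median over the features of Bc1 differed by only -0.66. Gm5485 was at 4.27 and 7.09, and Tmem238l at 6.95 and 7.98. The other 4 called lncRNAs, Xlr4d-ps, Tbx3os2, 2700038G22Rik and 3010003L21Rik, had both values under the control limits. Of the abundant nuclear lncRNAs, Malat1 was at 9.65 and 9.96 and Neat1 at 6.68 and 7.06, and neither was called.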

How the data were processed

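Total RNA of sorted cells was hybridised to Clariom D mouse arrays, 1 array a group. The deposited values are log2 values made by the authors with Affymetrix Power Tools and RMA (background correction, quantile scaling and probe summary), per the submitters' processing notes; versions and genome build are not given in the sources used here. Features were named from the platform annotation, and 1800 symbols were updated through RefSeq. For 441 genes with several features the feature with the highest mean was used. Only the difference between the arrays was computed, with Python 3.11.15, pandas 2.3.3 and, for cyclic loess, limma 3.58.1 in R 4.3.3. The number of arrays limits the precision. The counting rule was run on simulated data, with shifts set beyond the size limit and an assumed noise level. That run checks the code and says nothing of the error of these arrays. Members and gene lists were chosen with earlier results of these data known. Named were up to 10 members of a list, the 20 largest differences each way outside predicted genes, small RNAs and receptor segments, and the 5 largest noncoding ones.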

Additional observations from a re-analysis of the deposited data

Results flagged for a closer look

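Features outside the named genes were counted by the same rule. Among 33185 transcript clusters with no name here, 335 (1.01%) were higher and 229 (0.69%) lower on the mutant array, shares below the 2.81% and 3.02% over all named genes. Among 1481 features with several symbols, 34 (2.30%) were higher and 78 (5.27%) lower. None of them enters the counts above.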

How the results depend on the processing

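No paired analysis was possible because each group has 1 array. Against 864 higher and 926 lower genes, median centring gave 874 and 896, quantile normalization 967 and 813, cyclic loess 1102 and 652, no brightness limit 1065 and 1135, the control limit as brightness limit 792 and 777, the median of a gene's features 859 and 921, and features in place of genes 874 and 939. The counts moved by over 1.5 times with a brightness limit at the 90th percentile (534 and 599), a size limit of 1.5-fold (1638 and 2119) and one of 4-fold (281 and 150), and the lower count also with protein-coding genes only (781 higher, 501 lower). Leaving out antigen receptor segments and pseudogenes, an alternative chosen after seeing the data, gave 795 and 542. Of 340 called genes in the lists and among the largest differences, none changed direction under any of the 3 scalings or the median of features; 4 calls were lost under median centring, 8 under quantile normalization and 24 under cyclic loess, each of a lower gene, and 4 with the median of features, while quantile normalization gained 8 calls and cyclic loess 14. Values under the control limits carry no level, and replicate error is unknown.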

Other observations

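Further families were named by symbol and picked after their values were seen. Over all genes 2.81% were called higher, and 792 of the 6668 genes above the control limit on either array. Butyrophilin-like genes of enterocytes, which hold gamma delta T cells in the epithelium, were called higher in 4 of 6: Btnl6 was at 5.60 on the wild-type array and 8.13 on the mutant array, Btnl1 at 5.48 and 7.36, Btnl2 at 5.92 and 7.92 and Btnl4 at 5.36 and 7.18. Of 8 Clec2 lectins 3 were called higher, Clec2h at 8.79 and 11.15, Clec2e at 5.72 and 8.91 and Clec2d at 7.13 and 9.16. Apolipoprotein L genes were called higher in 7 of 12, with Apol7e at 3.94 and 7.77 and Apol9a at 3.11 and 6.21, and 3 of 8 lymphocyte Gimap GTPases were, with Gimap4 at 5.03 and 7.79. Of 331 solute carriers in all, 50 were called higher and 8 lower; the glucose carrier Slc2a1 was at 6.61 and 5.36 and the arginine carrier Slc7a1 at 6.62 and 5.20, both lower. Other families held few calls. In the UDP glucuronosyltransferases 1 of 11 was called higher with 8 of 11 differences negative, and 2 were above the control limit on either array. In the Ceacam family 2 of 15 genes were called higher with a median of -0.04, and 5 were above that limit. For peroxisome biogenesis 0 of 14 genes were called, and 2 were above it.

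Families of protein making and folding held calls in the lower direction only, and not in every family. Over all genes 3.02% were called lower, and 777 of the 6668 genes above the control limit on either array. Of 18 tRNA synthetases all differences were negative and 5 were called lower, with Eprs at 7.03 and 5.59 and Iars at 7.08 and 5.75. The TRiC chaperonin gave 3 of 7 called lower, with Cct8 at 6.91 and 5.66, and initiation factors 6 of 47, with Eif3a at 8.68 and 7.26 and 14 of 47 differences positive. The share of initiation factors was not far above that of the 6668 genes. Nucleolar Nop, Nol and Utp genes were called lower in 6 of 27, led by Nop58 at 8.00 and 6.13, with 25 of 27 differences negative. Only 7 of the 27 were above the control limit on either array, so most of these signs are of values without a level. Utp15 and Utp20 were called from values under both control limits. Subunits of RNA polymerase I and III gave 0 of 14 called and proteasome subunits 0 of 39. Above the control limit on either array were 4 of the 14 and 32 of the 39. The chloride channel accessory genes Clca3a1, Clca3a2 and Clca3b were all lower, Clca3b at 10.96 and 9.44.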
